A study of Mus musculus with 6 samples.

Results

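Regulatory T (Treg) cells and T follicular regulatory (Tfr) cells share a set of genes, and 10 of them, chosen by gene symbol, were followed in T follicular helper (Tfh) cells: *Foxp3*, *Il2ra*, *Ctla4*, *Ikzf2*, *Ikzf4*, *Tnfrsf18*, *Nrp1*, *Lrrc32*, *Capg* and *Gpr83*. They are 10 of the 14744 gene symbols with a value, and all 10 passed the filter on low values (a normalized count of at least 10 in at least 3 libraries), as did 11296 genes in all. The mice were C57BL/6 by their sample labels and on a C57BL/6J background by the paper. RNA was sequenced from 10000 to 30000 sorted cells per sample, from the mesenteric lymph nodes (MLNs) of mice aged 2 to 3 months, in 3 WT samples and 3 samples from Bach2fl/flCd4-cre mice. In the latter, loxP-flanked *Bach2* is deleted by a Cre recombinase under the *Cd4* promoter, which is active in all developing αβ T cells, so that the deletion is not limited to Tfh cells and includes Treg and Tfr cells. The study's WT mice were Cd4-Cre littermates, so the Cre transgene is common to both groups. The sort took CD4+B220-CD44+PD-1+CXCR5+ cells and had no term for Foxp3 or CD25, so that Tfr cells, which carry the same surface markers, fall within it. Nothing in the sources used here says whether each library came from a separate mouse, and the p-values measure only the spread between these libraries.

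Treg cells restrain immune responses and depend on the transcription factor Foxp3, which is induced and maintained by signals from the T cell receptor, IL-2 and TGF-β. Tfr cells arise mostly from Treg cells, take up CXCR5 and PD-1 as Tfh cells do, and enter B cell follicles, where they limit germinal center responses through CTLA-4 and other means. In the gut-draining MLNs both Tfh and Tfr cells are present without immunization, because food and microbiota keep germinal centers active.

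The recovered depth was 6585742 and 7823717 reads in WT replicates 2 and 3, and 5045131, 10987752 and 7197242 reads in replicates 1, 2 and 3 labelled Bach2-deficient. The values of WT replicate 1 are also whole multiples of a step, and at 1 read per step it has 7737531 reads. Its step of 1.0093 differs little from those of WT replicate 3 (1.0398) and replicate 3 labelled Bach2-deficient (1.0228). The count tests were first set to the 5 other libraries, because that step is nearest to 1, a weak ground to leave a library out. They were also run on all 6, an alternative added after the values were seen. WT replicate 1 stood apart, with 11648 genes above 0, where the 5 other libraries had 13111 to 13567, and results that turn on it are also given without it. *Bach2*, the deleted gene, was at 233, 222 and 105 normalized counts in WT replicates 1, 2 and 3 and at 399, 763 and 591 in the libraries labelled Bach2-deficient. Every value of the second group exceeded every WT value, by 1.68 on the log2 scale (SE 0.37, limma adjusted p = 0.141), which goes against the label. DESeq2 called *Bach2* higher on 5 libraries (adjusted p = 0.00123, 0.292% of all genes) and on 6 (0.00502, 0.336%), as did limma with library weights (4.97% of all genes), and edgeR did not. With the dependence on exon length and GC removed, the difference was 1.26 and the groups overlapped. The values are counts per gene and may include reads from exons that the deletion leaves, and the antisense gene *Bach2os*, at 0 to 18.4, cannot be told apart from it without strand. The second group is therefore named by its label only, and each direction given below rests on that label.

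The libraries carried the markers of the sorted cells. Among 16 T cell and Tfh markers, all 16 were above 0 in each library, and *Cd3d* was the most abundant per kb of exon. In log2 fold change 8 were below 0 and 8 above 0. Without overlap 2 were lower, *Cd3e* and *Cd28* (12.2% of all genes). Another 4 were higher without overlap, *Cd4*, *Cd44*, *Bcl6* and *Tox2* (14.6% of all genes). The Tfh genes *Il21* (-0.48), *Cd40lg* (-0.52) and *Sh2d1a* (-0.45) were below 0 with overlap, and at -0.62, -0.87 and -0.60 without WT replicate 1. In that fit *Cd40lg* was lower without overlap, and 3 of the 16 were lower (18.1% of all genes) and 4 higher (20.5%) without overlap. Limma with library weights called *Cd40lg* lower (-1.08, 5.02% of all genes), while DESeq2 and edgeR did not. *Cxcr5* was at 1613, 1444 and 2039 normalized counts in WT and at 2028, 1271 and 2207 in the libraries labelled Bach2-deficient, with overlap between the groups, and *Pdcd1*, which encodes PD-1, at 2708, 1594 and 2403 and at 2159, 1462 and 1927, also with overlap. *Cd4* was higher in each library labelled Bach2-deficient (3341 to 4131, against 2407 to 2792 in WT), and so was *Bcl6*, the transcription factor that directs Tfh differentiation (537 to 818, against 342 to 501). Their log2 fold changes of 0.49 and 0.74 were 0.30 and 0.38 with the dependence on exon length and GC removed. *Tox2*, a gene of Tfh cells, was also higher without overlap, by 1.10 on the log2 scale and by 0.74 without WT replicate 1. *Cd3e* was lower in each library labelled Bach2-deficient (4534 to 6139.8, against 9648 to 11924), by -1.02 on the log2 scale (SE 0.20, limma adjusted p = 0.141). DESeq2 called *Cd3e* lower on 5 libraries (adjusted p = 0.00351, 0.505% of all genes) and on 6 (0.726%), as did limma with library weights (5.02%), and edgeR did not.

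The 10 genes lie on different chromosomes, except for *Ctla4* and *Ikzf2*, which are both on chromosome 1. In GENCODE M21 on GRCm38, *Foxp3* extends from 7573644 to 7595245 on chromosome X, *Tnfrsf18* from 156026164 to 156028895 on chromosome 4, *Ctla4* from 60887000 to 60915832 on chromosome 1 and *Capg* from 72544391 to 72562983 on chromosome 6. Exons of *Foxp3* share bases with *Flicr* on the same strand and with *Ppp1r3f*, *Gm36995* and *Ccdc22* on the other strand, and the strand used in counting is not given in the sources used here, so that their reads cannot be told apart. Of these only *Ppp1r3f* had values, at 0 to 7.85 normalized counts in WT and 1.48 to 11.3 in the libraries labelled Bach2-deficient. *Ikzf2*, *Ikzf4* and *Tnfrsf18* likewise share exon bases with a gene on the other strand, and *Nrp1* with a microRNA gene on its own strand.

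Promoter windows from RefSeq, on GRCm38.p6 and reaching from 250 bases before to 50 bases after a transcript start, were given for 7 of the 10 genes, in 8 windows, and were searched on both strands for 3 motifs. These were TGANTCA, an AP-1-like core of the kind that Bach2 and AP-1 proteins bind, TTCNNNGAA, the STAT motif, and TGTGGT, the Runx motif. None of the 8 windows held the AP-1-like or the Runx letters, which 7.81% and 16.8% of 32851 promoters held. The STAT letters, held by 8.30% of these promoters, were in 1 of the 2 windows of *Foxp3*, where TTCCAAGAA begins at position -139 from the start, and in the window of *Tnfrsf18*, where TTCACAGAA begins at position -99. A match is a description of the letters only, and the absence of a match says only that the letters are not in that window. The windows are shown for the 4 genes whose values did not overlap between the groups, with the STAT letters in capitals, all on the plus strand: for *Foxp3* the window with the match, chrX:7580233-7580532, for *Tnfrsf18* chr4:156026072-156026371, for *Ctla4* chr1:60908775-60909074 and for *Capg* chr6:72549397-72549696, the latter pair without a match.
Foxp3: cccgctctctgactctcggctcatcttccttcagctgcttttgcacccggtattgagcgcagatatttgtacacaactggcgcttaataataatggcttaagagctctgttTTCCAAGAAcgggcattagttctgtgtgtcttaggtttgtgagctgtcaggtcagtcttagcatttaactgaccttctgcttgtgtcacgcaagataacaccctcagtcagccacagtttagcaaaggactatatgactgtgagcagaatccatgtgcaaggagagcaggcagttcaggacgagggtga
Tnfrsf18: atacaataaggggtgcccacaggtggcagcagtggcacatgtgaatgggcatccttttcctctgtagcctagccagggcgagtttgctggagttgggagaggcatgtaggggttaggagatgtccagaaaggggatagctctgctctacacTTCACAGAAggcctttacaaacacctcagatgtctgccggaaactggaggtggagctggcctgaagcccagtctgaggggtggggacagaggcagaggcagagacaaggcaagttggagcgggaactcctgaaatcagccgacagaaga
Ctla4: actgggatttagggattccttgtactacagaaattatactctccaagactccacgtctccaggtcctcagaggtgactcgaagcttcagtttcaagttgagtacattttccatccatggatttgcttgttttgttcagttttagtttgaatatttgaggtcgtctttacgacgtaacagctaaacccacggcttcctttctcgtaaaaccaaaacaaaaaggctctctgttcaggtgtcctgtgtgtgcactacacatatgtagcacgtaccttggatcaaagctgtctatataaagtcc
Capg: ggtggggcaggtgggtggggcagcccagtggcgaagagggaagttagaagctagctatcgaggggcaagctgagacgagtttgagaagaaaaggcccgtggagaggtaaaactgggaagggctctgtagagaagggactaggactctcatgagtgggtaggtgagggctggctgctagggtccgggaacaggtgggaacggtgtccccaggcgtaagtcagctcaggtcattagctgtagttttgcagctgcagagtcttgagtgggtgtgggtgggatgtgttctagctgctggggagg

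*Foxp3* encodes the transcription factor that defines the Treg lineage, to which Tfr cells belong. Its normalized count was 222, 315 and 344 in WT replicates 1, 2 and 3, and 47.3, 140.0 and 91.0 in replicates 1, 2 and 3 labelled Bach2-deficient. All 3 WT libraries were higher than any library labelled Bach2-deficient, with replicate 1 of the latter the lowest and its replicate 2 nearest to WT. The means were 294 ± 63.8 (SD, n = 3) and 92.8 ± 46.4 (SD, n = 3), a ratio of 3.17 in favor of WT. In a bulk sample, fewer *Foxp3*-expressing cells within the gate and less *Foxp3* RNA per cell cannot be told apart, here or for any other gene. On the log2(normalized count + 1) scale, which understates the change of low genes, *Foxp3* differed by -1.76, with an SE of 0.43 and a 95% confidence interval (CI) from -2.71 to -0.81. The unadjusted limma p was 0.00205 and the Benjamini-Hochberg adjusted p was 0.141, above the study's threshold of 0.01.

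The values of *Foxp3* rest on few reads in some libraries. The recovered reads were 281 and 331 in WT replicates 2 and 3, and 32, 209 and 89 in the libraries labelled Bach2-deficient. DESeq2 on these 5 libraries gave a log2 fold change of -1.84 with an adjusted p of 0.00425, past the thresholds of 0.01 and 2-fold, and edgeR's quasi-likelihood test gave -1.81 with an adjusted p of 0.150. With WT replicate 1 added, DESeq2 on 6 libraries gave -1.68 with an adjusted p of 0.0113, which does not pass 0.01, so that the DESeq2 call of *Foxp3* rests on the omission of that library. Over all settings the adjusted p of *Foxp3* ranged from 0.00332 to 0.507, in limma, edgeR or DESeq2. The log2 fold change was below 0 in 21 of 21 settings, and leaving out single libraries gave -2.12 to -1.35, the value nearest 0 without replicate 1 labelled Bach2-deficient. With 3 libraries per group, an exact permutation test of any gene has 0.1 as its smallest 2-sided p.

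The amount of *Foxp3* was also set against 4 other genes of the same library, chosen after the values were seen. Per 100 normalized counts of *Cd4*, *Foxp3* was at 8.88, 13.1 and 12.3 in WT and at 1.14, 4.19 and 2.72 in the libraries labelled Bach2-deficient, without overlap. *Cd4* was itself higher in the libraries labelled Bach2-deficient, which widens the difference in this ratio. *Cd3e* was itself lower in them, which narrows the difference in the next. Per 100 of *Cd3e*, *Foxp3* was at 2.09, 3.27 and 2.89 and at 1.04, 2.67 and 1.48, and replicate 2 labelled Bach2-deficient lay within the WT range. Per 100 of *Ikzf2* it was at 6.42 to 7.58 in WT and 0.868 to 3.96 in the other group, and per 100 of *Ctla4* at 30.5 to 40.0 and 7.62 to 23.2. The groups overlapped relative to *Cd3e* and separated in the other 3 of the 4 ratios. *Foxp3* by itself already separated the groups, so these ratios restate that difference and are no further evidence of it.

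**Figure D1:**
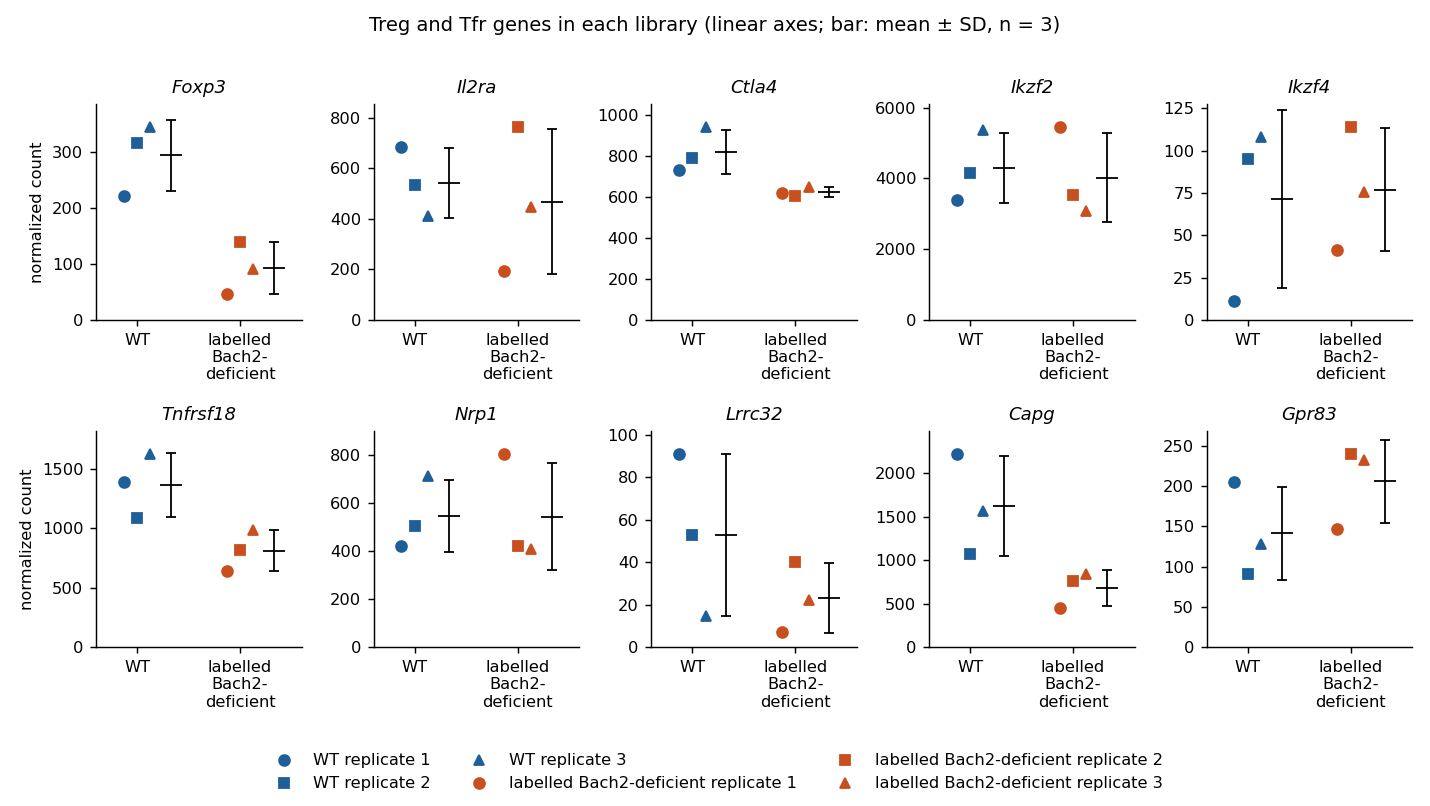
Normalized count (linear axes from 0) of each of the 10 genes in 3 WT libraries (blue) and 3 libraries labelled Bach2-deficient (orange); symbols give the replicate, and the black bar the mean ± SD (n = 3). For *Foxp3*, *Ctla4*, *Tnfrsf18* and *Capg* each orange point lies below each blue point, and for the other 6 genes the groups overlap.

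*Tnfrsf18* and *Ctla4* encode surface receptors that Treg cells carry at high levels and that other activated T cells, Tfh cells among them, also express. *Tnfrsf18* encodes GITR, a costimulatory receptor of the TNF receptor family. It was at 1385, 1088 and 1620.1 normalized counts in WT and at 643, 814 and 982 in the libraries labelled Bach2-deficient. The lowest WT value, of replicate 2, was above the highest value of the other group, of replicate 3, by a small margin. *Tnfrsf18* differed by -0.75 on the log2 scale (SE 0.24, 95% CI -1.28 to -0.22, limma adjusted p = 0.158), less than 2-fold, and by -0.90 to -0.59 with single libraries left out.

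CTLA-4 binds CD80 and CD86 and takes them from antigen-presenting cells, a means by which Treg and Tfr cells limit costimulation. *Ctla4* was at 729, 789 and 940.0 in WT and at 621, 602 and 648 in the libraries labelled Bach2-deficient. The values of the latter lay close together and below each WT value. At -0.38 on the log2 scale (SE 0.21, 95% CI -0.84 to 0.07, limma adjusted p = 0.306), the groups of *Ctla4* did not overlap while its interval includes 0. After each library was freed of its smooth dependence on exon length and GC content, *Ctla4* differed by -0.08, and its groups overlapped.

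*Capg* encodes a protein that caps actin filaments and is expressed in Treg cells and also in macrophages. It was at 2214, 1071 and 1567 in WT and at 451, 760.5 and 845 in the libraries labelled Bach2-deficient. WT replicate 1 had the highest value and replicate 1 labelled Bach2-deficient the lowest, and the groups did not overlap. *Capg* differed by -1.23 on the log2 scale (SE 0.32, 95% CI -1.93 to -0.52, limma adjusted p = 0.141). It was -0.97 without WT replicate 1, under 2-fold, and -1.49 to -0.95 over the fits with a single library left out. Of 12 myeloid and dendritic cell markers tested, 6 were below 0 and 6 above 0 in log2 fold change, and 0 of the 12 separated the groups without overlap, with or without WT replicate 1. The even split rests on that library, without which *Itgax* (-0.02), *Tyrobp* (-0.20) and *Fcer1g* (-0.14) turned below 0 and *Xcr1* (0.08) above 0. *Cd68*, a macrophage gene, was at 347, 419.5 and 318 in WT and at 133, 339 and 138 in the libraries labelled Bach2-deficient, lower by -0.96 on the log2 scale with overlap, and was the 1 gene of the 12 under an unadjusted limma p of 0.05, where 10.2% of all genes were lower. Without WT replicate 1, *Cd68* (-0.99) and *Lyz2* (-1.26, from -0.79) were lower under that p (9.43% of genes) and 0 of the 12 higher (9.79%). *Csf1r* (1.62), *S100a8* (2.14) and *Fcer1g* (0.46) were above 0 with 6 libraries and at 0.43, 1.31 and -0.14 without WT replicate 1, so that the direction of *Fcer1g* rests on that library, and on replicate 2 labelled Bach2-deficient, without which it was also below 0. The part of myeloid RNA in the values of *Capg* was not tested.

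*Il2ra* encodes CD25, the α chain of the high-affinity IL-2 receptor, which most Treg cells carry and many Tfr cells in germinal centers lack. It was at 685, 535 and 409.7 in WT and at 192, 763 and 448 in the libraries labelled Bach2-deficient. In the latter group replicate 1 had the lowest and replicate 2 the highest value of all 6 libraries, so that the WT values lay within its range. *Il2ra* had a log2 fold change of -0.40 (95% CI -1.38 to 0.58), which was -0.21 without WT replicate 1, -0.85 without replicate 2 labelled Bach2-deficient and turned to 0.14 without replicate 1 labelled Bach2-deficient.

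*Ikzf2* and *Ikzf4* encode Helios and Eos, transcription factors of the Ikaros family that work with Foxp3 in Treg cells. Helios is also made by Tfh cells. *Ikzf2* was at 3394, 4160.4 and 5358 in WT and at 5448, 3538 and 3079.6 in the libraries labelled Bach2-deficient. Replicate 1 labelled Bach2-deficient, which had the lowest *Foxp3* of all libraries, had the highest *Ikzf2*, and the other 2 libraries of its group were within or below the WT range. Its log2 fold change, -0.12 (95% CI -0.69 to 0.46), was above 0 without WT replicate 3 (0.05) or replicate 3 labelled Bach2-deficient (0.05). It was -0.28 without WT replicate 1, and -0.36 and -0.05 where replicates 1 and 2 labelled Bach2-deficient were omitted in turn. Under quantile normalization it was 0.07.

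*Ikzf4* was at 11.1, 95.3 and 108 in WT and at 41.4, 114 and 75.7 in the libraries labelled Bach2-deficient. WT replicate 1 alone was far below the others, and the other WT libraries lay within the range of the second group. Its log2 fold change of 0.52 (95% CI -1.31 to 2.35) was -0.51 without WT replicate 1, so that its direction rests on that library. The value was 0.99 and 1.08 without WT replicates 2 and 3, and 0.90 and 0.18 where replicates 1 and 2 labelled Bach2-deficient were omitted in turn.

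*Nrp1*, *Lrrc32* and *Gpr83* encode further surface proteins of Treg cells. Neuropilin-1, the product of *Nrp1*, binds semaphorins and marks Treg cells that arise in the thymus. *Nrp1* was at 421, 505 and 711 in WT and at 801, 419 and 408 in the libraries labelled Bach2-deficient, where replicate 1 was the highest of all 6 and the other 2 were below the WT values. For *Nrp1* the log2 fold change of -0.05 (95% CI -0.75 to 0.66) was above 0 without WT replicate 3 (0.16), or replicate 2 (0.10) or 3 (0.12) of the second group. It was -0.22 and -0.09 without WT replicates 1 and 2, and -0.36 where replicate 1 labelled Bach2-deficient was omitted.

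*Lrrc32* encodes GARP, which holds latent TGF-β on the surface of activated Treg cells. It was at 90.8, 52.7 and 14.6 in WT and at 7.39, 40.2 and 22.5 in the libraries labelled Bach2-deficient, with 5 recovered reads in replicate 1 of the latter and 14 in WT replicate 3. Values of both groups spread over most of the range, and overlapped. Its log2 fold change of -1.08 (95% CI -3.02 to 0.86) was -0.52 without WT replicate 1, -0.45 without replicate 1 labelled Bach2-deficient and -1.80 without WT replicate 3. With a weight for each library it was 0.45.

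*Gpr83*, which encodes a G protein-coupled receptor expressed in Treg cells, was at 205, 90.9 and 128 in WT and at 146, 239 and 232 in the libraries labelled Bach2-deficient. Replicates 2 and 3 of the latter were the highest of all libraries, and WT replicate 1 lay above replicate 1 of that group. *Gpr83* was higher by 0.59 on the log2 scale (95% CI -0.28 to 1.45, limma adjusted p = 0.394), and above 0 in each setting run. Without WT replicate 1 its log2 fold change was 0.89 and the groups did not overlap, and without WT replicate 2 it was 0.31.

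Counted over the 10 genes, 4 were lower in the libraries labelled Bach2-deficient without overlap between groups (*Foxp3*, *Ctla4*, *Tnfrsf18* and *Capg*), where 12.2% of the 11296 genes tested were, and 0 were higher without overlap, where 14.6% of genes were. At an unadjusted limma p under 0.05, 3 of the 10 were lower (*Foxp3*, *Tnfrsf18* and *Capg*), against 10.2% of all genes, and 0 were higher, against 10.1%. The study called a gene at more than 2-fold with an adjusted p below 0.01, and on those terms limma called 0 of the 10 genes lower and 0% of all genes, as did edgeR on 5 libraries. The lowest limma adjusted p of any gene was 0.141. By edgeR 4 of the 10 were lower at an unadjusted p under 0.05 (8.77% of genes) and 1 was higher, *Gpr83* (9.55% of genes). DESeq2 on the same 5 libraries called 1 of the 10 lower at the thresholds, *Foxp3*, where it called 0.505% of genes, and by unadjusted p under 0.05 it had 4 of the 10 lower (9.45% of genes) and *Gpr83* higher (9.66% of genes). In both count tests the lower genes were *Foxp3*, *Tnfrsf18*, *Capg* and *Ctla4*. DESeq2 called 0 of the 10 higher, where it called 0.292% of all genes. With WT replicate 1 added, DESeq2 on 6 libraries called 0 of the 10 lower (0.726% of genes) and 0 higher (0.336%), and *Capg* (0.0101) and *Foxp3* (0.0113) had its lowest adjusted p values among the 10. At an unadjusted p under 0.05 on 6 libraries, *Foxp3*, *Tnfrsf18* and *Capg* were lower and 0 of the 10 higher, by DESeq2 (12.2% and 9.7% of genes) and by edgeR (10.1% and 8.95%). A weight for each library in limma made the call for 1 of the 10, again *Foxp3*, lower as 5.02% of all genes were. With these weights 6 of the 10 were lower at an unadjusted p under 0.05 (22.8% of genes) and 1 was higher (24.3%), and 0 were called higher (4.97%). By more than 2-fold and without overlap, in limma on 6 libraries, *Foxp3* and *Capg* were lower (4.07% of genes) and 0 of the 10 higher (5.95%). The median log2 fold change of the 10 genes was -0.39, beside 0.08 over all genes tested. No test was made over the list, and the 10 genes were not taken as replicates of each other.

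Without WT replicate 1, 4 of the 10 genes were lower without overlap (18.1% of genes) and 1, *Gpr83*, was higher without overlap (20.5% of genes). At an unadjusted p under 0.05, 3 were lower in that fit (9.43% of genes) and *Gpr83* was higher (9.79% of genes), with a median of -0.49. Gene length was related to the difference between groups: over 11264 genes, which are not independent replicates, Spearman's rho between log2 fold change and exon length was 0.26. The median log2 fold change was -0.19 among the 2816 genes with the shortest exons and 0.34 among the 2816 with the longest. Removal of the dependence on length and GC moved the median of all genes from 0.08 to -0.04 and that of the 10 genes to -0.44. *Foxp3* was then at -2.13, *Capg* at -1.42 and *Tnfrsf18* at -0.76, and these were the 3 genes lower at an unadjusted p under 0.05 (10.7% of genes).

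**Figure D2:**
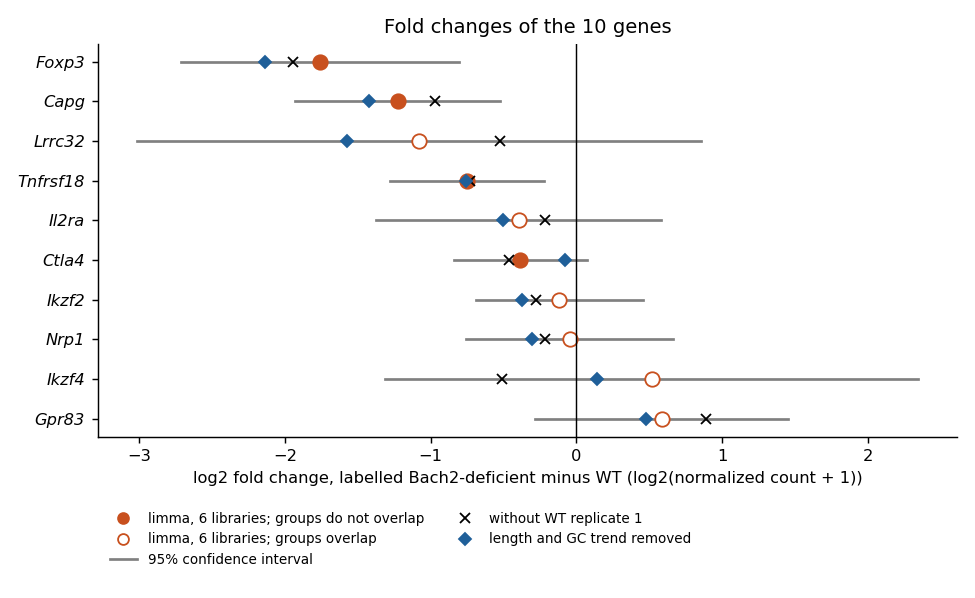
Log2 fold change of the 10 genes, as the libraries labelled Bach2-deficient minus WT on the log2(normalized count + 1) scale, with 95% confidence intervals from limma; filled circles mark genes whose groups do not overlap, crosses the value without WT replicate 1 and diamonds the value after removal of the length and GC trend. The intervals of *Foxp3*, *Capg* and *Tnfrsf18* lie below 0, and the cross of *Ikzf4* lies on the other side of 0 from its circle.

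**Figure D3:**
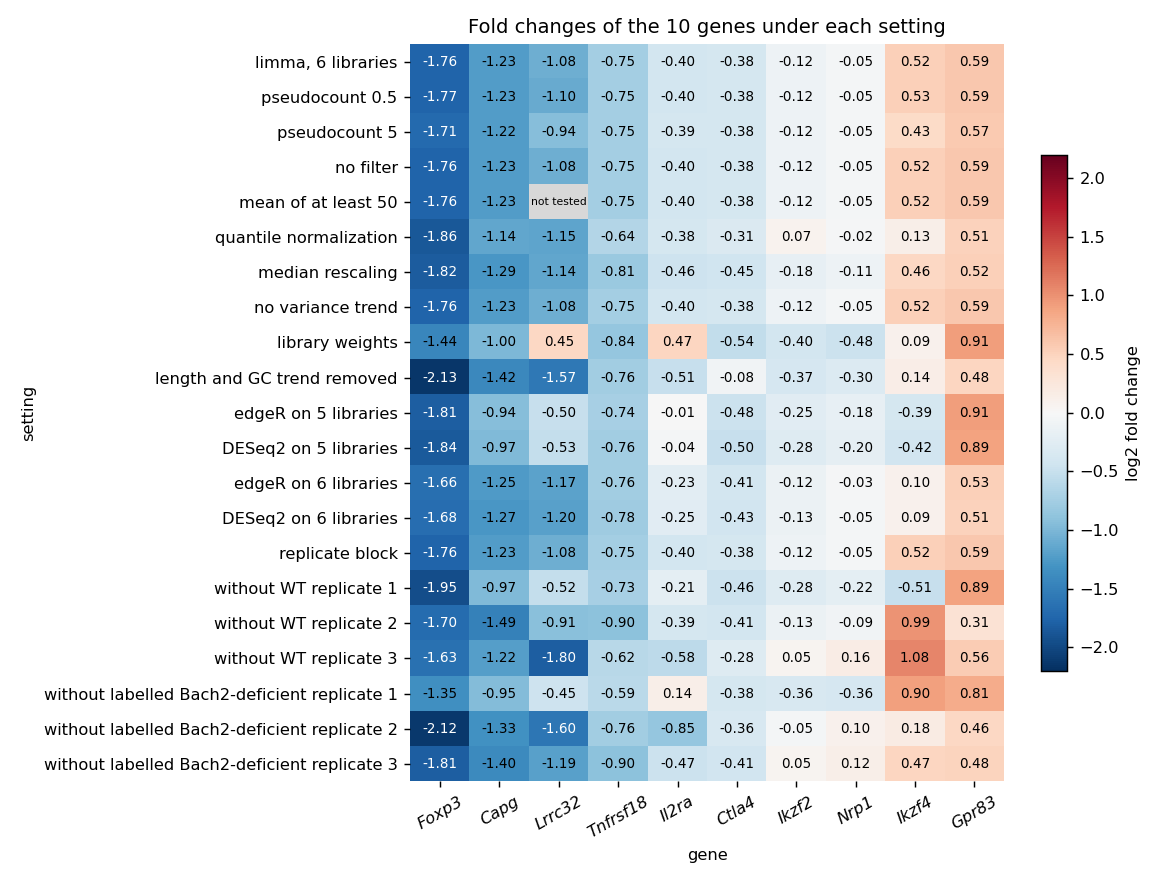
Log2 fold change (number and color) of the 10 genes (columns) under each setting, from limma on 6 libraries to fits with a single library left out; grey marks a gene under the filter. *Foxp3*, *Capg*, *Tnfrsf18* and *Ctla4* are below 0 and *Gpr83* above 0 in each setting, and the other 5 genes change sign in at least 1.

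Levels were compared between genes only per kb of exon. In WT the order was *Tnfrsf18* (895 ± 175 normalized counts per kb, SD, n = 3), *Capg* (639 ± 226), *Ikzf2* (371 ± 85.2) and *Ctla4* (352 ± 46.7), followed at lower levels by *Il2ra*, *Foxp3* and *Nrp1*, and then by *Gpr83*, *Ikzf4* and *Lrrc32*. Neighbors in that order had overlapping ranges over the 3 libraries, except for *Ctla4* (313 to 403) and *Il2ra* (71.7 to 120.0) and for *Nrp1* (43.0 to 72.7) and *Gpr83* (17.8 to 40.2). *Foxp3*, at 64.2 per kb in WT, was the 6th of the 10 genes by mean, and at 20.3 the 8th in the libraries labelled Bach2-deficient, below *Nrp1* and *Gpr83*.

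The other 9 genes differed in how closely they followed *Foxp3* over the 6 libraries. Pearson's r with *Foxp3*, on log2 values and given as a description only, was 0.853 for *Tnfrsf18*, 0.815 for *Ctla4*, 0.811 for *Capg*, 0.607 for *Il2ra* and 0.565 for *Lrrc32*. It was 0.136 for *Ikzf4*, -0.0124 for *Ikzf2*, -0.182 for *Nrp1* and -0.424 for *Gpr83*, so that 6 of the 9 were above 0. The 6 points of each r fall in 2 groups of 3, and a difference between the groups alone gives a high r. Among 11286 other genes tested, those most like *Foxp3* over the 6 libraries were *Zfr* (r = 0.991), *Them6* (0.991), *Sh3bgrl3* (0.986), *Fam3c* (0.984) and *Fam96a* (0.981). These genes differed less between groups than *Foxp3*, with log2 fold changes from -0.72 to -0.34.

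Other genes of Treg and Tfr effector function formed a list of 30, of which 29 were tested. At an unadjusted limma p under 0.05, 9 were lower in the libraries labelled Bach2-deficient (10.2% of all genes) and 2 higher (*Il1rl1* and *Gzmb*; 10.1% of all genes). Without overlap, 9 were lower (12.2% of all genes) and 0 higher (14.6%). Without WT replicate 1 these counts were 10 lower (9.43%) and 3 higher (9.79%) by p, and 12 lower (18.1%) and 3 higher (20.5%) without overlap, the latter being *Tnfrsf1b*, *Ccr4* and *Il1rl1*. The median log2 fold change was -0.56, and -0.71 without WT replicate 1. The most abundant per kb was *Izumo1r*, which encodes folate receptor 4, at 7048, 7054 and 10580.0 normalized counts in WT and 7738, 6108 and 7088 in the other group, with overlap.

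Of these effector genes, 8 were lower by more than 2-fold without overlap (4.07% of all genes) and 0 higher (5.95%). The chemokine receptor gene *Ccr6* was at 645, 273 and 227 in WT and at 59.1, 62.3 and 50.1 in the libraries labelled Bach2-deficient, with WT replicate 1 the highest and the latter group close together. Its log2 fold change was -2.56 (limma adjusted p = 0.141). *Tnfrsf9*, which encodes the costimulatory receptor 4-1BB, was at 3019.9, 1096 and 1492 and at 343, 600.4 and 632, again with WT replicate 1 the highest, and its log2 fold change was -1.75, or -1.33 without that library. *Icos*, the gene of a costimulatory receptor of Tfh and Treg cells, was at 2546, 4079 and 4953 and at 1674, 1439.9 and 2511, with a log2 fold change of -1.03. That was -0.88 with the length and GC trend removed, under 2-fold, and -1.30 to -0.82 with single libraries left out. DESeq2 on 5 libraries called these 3 genes lower (0.505% of all genes) and *Il1rl1*, which encodes the IL-33 receptor, higher (0.292%). On 6 libraries it called *Ccr6*, *Tnfrsf9* and *Tnfrsf4* lower (0.726% of all genes) and 0 higher (0.336%), and *Icos* (adjusted p = 0.0159) and *Il1rl1* (0.0811) did not pass. *Il1rl1* was at 82.8, 11.2 and 44.7 in WT and at 171, 275 and 71.6 in the libraries labelled Bach2-deficient, with overlap, and its log2 fold change was 2.07. It was 2.68 without WT replicate 1, where the groups did not overlap, and 1.29 without WT replicate 2. The other 5 lower genes were *Penk*, which encodes proenkephalin (-1.98), the chemokine receptor gene *Ccr8* (-1.56), the cytokine gene *Il10* (-1.38), *Cd83* (-1.23) and *Tnfrsf4*, which encodes the costimulatory receptor OX40 (-1.09), as log2 fold changes. *Penk* was at 2914 in WT replicate 1 against 527 and 1097 in the other WT libraries, and its log2 fold change was -1.33 without it. *Il10* was then at -0.91 and *Tnfrsf4* at -0.92, both under 2-fold.

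IL-2 signals through its receptor chains, Jak kinases and STAT5 and upholds *Foxp3* expression. Of 11 genes of this pathway, all tested, 1 was lower (10.2% of all genes) and 2 were higher (10.1%) at an unadjusted limma p under 0.05, and the median log2 fold change was 0.54. Without overlap, 1 was lower (12.2%) and 3 were higher (14.6%), the latter being *Jak1*, *Jak3* and *Stat5b*. Without WT replicate 1, 1 was lower (18.1%) and 4 were higher (20.5%) without overlap. *Il2rg*, which encodes the common γ chain and was the most abundant per kb, was lower without overlap, at 4170.5, 3772 and 4360.0 in WT and 1729, 2212 and 2855 in the libraries labelled Bach2-deficient, with a log2 fold change of -0.88. The genes higher at that p were *Jak3* (0.91) and *Stat5b* (0.74), named for the count, which were at 0.30 and 0.38 after the length and GC trend was removed. The median of the pathway was then 0.17.

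Among 23 genes of Foxp3 partners and regulators, 0 were lower (10.2% of all genes) and 9 were higher (10.1%) at an unadjusted limma p under 0.05. Without overlap, 2 were lower (*Smad2* and *Ikzf3*; 12.2% of all genes) and 11 higher (14.6%). The median log2 fold change was 0.52. With the length and GC trend removed, the median was 0.25 and 3 genes were lower at that p (10.7% of all genes). On the higher side the count went from 9 to 3. It is not read further, because the share of all genes higher in that fit was not taken. Without WT replicate 1, 0 were lower (9.43%) and 10 higher (9.79%) by p, and 2 were lower (18.1%) and 13 higher (20.5%) without overlap. *Satb1*, a genome organizer needed to set up Treg enhancers in the thymus, was at 507, 679.8 and 334 in WT and at 1666, 2428 and 1106 in the libraries labelled Bach2-deficient. Its groups did not overlap, and its log2 fold change was 1.76 (1.38 with the trend removed). *Gata3*, a transcription factor of Th2 cells that Treg cells also use, was at 227, 251 and 309 and at 758, 1014 and 505, with a log2 fold change of 1.48 (1.41 with the trend removed). DESeq2 called these 2 genes higher on 5 libraries (0.292% of all genes) and on 6 (0.336%). *Foxo3* and *Tet3* were also higher by more than 2-fold without overlap, at 1.29 and 1.27, and were below 2-fold with the trend removed, at 0.77 and 0.60. *Nfatc2*, higher by just over 2-fold without overlap, was then at 0.31. *Tet3* (0.87) and *Nfatc2* (0.80) were also below 2-fold without WT replicate 1. *Mbd2*, a reader of methylated DNA and the most abundant per kb, was at 1518, 1459 and 1420.4 and at 1376, 1496 and 1395, with overlap.

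TGF-β is bound in latent form by GARP and freed by integrins. Of 8 genes for its activation and receptors, 1 was lower (10.2% of all genes) and 2 were higher (10.1%) at an unadjusted limma p under 0.05. These were 2 lower (9.43%) and 2 higher (9.79%) without WT replicate 1. Without overlap, 1 was lower (12.2%) and 3 were higher (14.6%), and 2 (18.1%) and 3 (20.5%) without that library. *Tgfb1* itself, which is also among the 9 lower effector genes, was lower, at 529.9, 339.9 and 373 in WT and 216, 222 and 216 in the libraries labelled Bach2-deficient, without overlap (log2 fold change -0.90, named for the count). *Tgfbr2*, which encodes a receptor chain, was at 443, 740.3 and 662 and at 1538, 1189 and 956, and *Furin*, whose product cleaves the TGF-β precursor, at 52.5, 96.5 and 69.7 and at 205, 149 and 115. Both were higher without overlap, *Furin* by 1.09 on the log2 scale, and *Tgfbr2* and *Furin* were at 0.61 and 0.40 once the trend was removed, and at 0.78 and 0.88 without WT replicate 1, under 2-fold. *Smad4*, the most abundant per kb, was the other gene higher without overlap, at 508, 469 and 361 in WT and at 603, 541 and 512 in the other group. It had a log2 fold change of 0.32, with a 95% CI of -0.20 to 0.84 that includes 0.

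**Figure D4:**
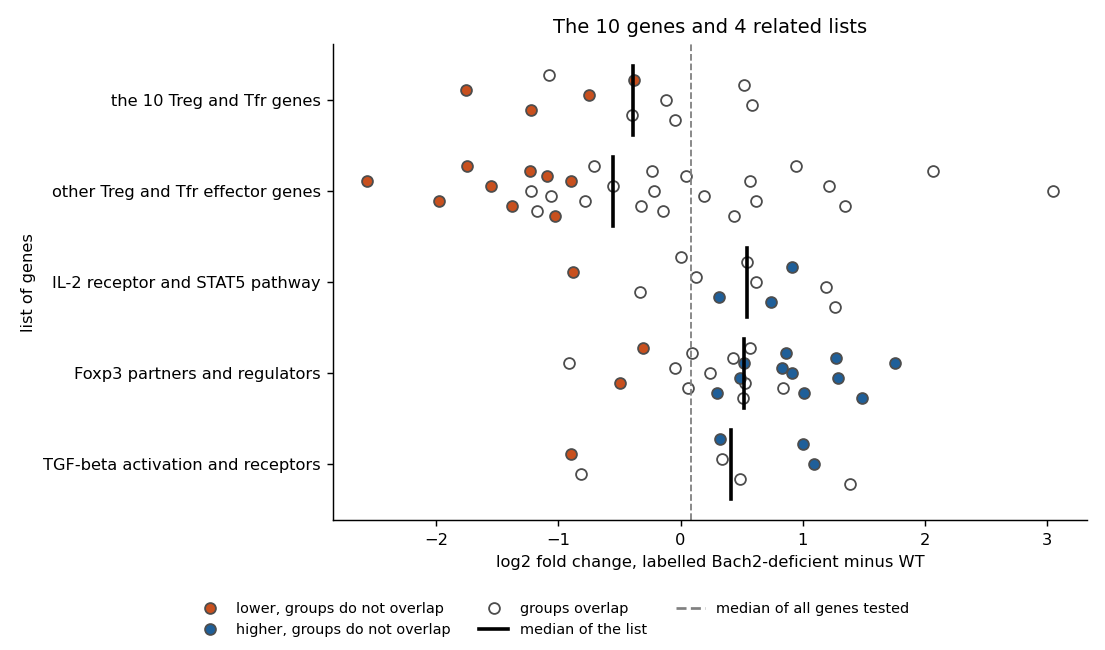
Log2 fold change (libraries labelled Bach2-deficient minus WT) of each tested gene of the 10 and of 4 related lists, each point a gene, with vertical spread for legibility only; color marks groups that do not overlap, the black bar the list's median and the dashed line the median of all genes tested, 0.08. The medians of the 10 genes and of the effector genes lie below the dashed line, and those of the IL-2, Foxp3 partner and TGF-β lists above it.

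Markers of other cells were read beside the 10 genes. The summed normalized count of 14 myeloid and dendritic cell markers was 6825, 16545 and 9253 in WT replicates 1, 2 and 3, and 7796, 15080.0 and 5570.1 in the libraries labelled Bach2-deficient, with *Cst3* the most abundant per kb and *S100a9* under 10 in each library. It was highest in replicate 2 of each group, and the groups overlapped. The sum of 4 plasma cell markers was 1904, 30008 and 8274 in WT and 3014, 1375 and 1458 in the other group, and most of it in WT replicates 2 and 3 was *Jchain* (28803 and 6972). The log2 fold change of *Jchain* was -2.35 with overlap, and -4.18 without WT replicate 1. In that fit 2 of the 2 plasma cell genes tested were lower without overlap (18.1% of all genes). Limma with library weights called *Jchain* lower, as it did 5.02% of all genes, while DESeq2 and edgeR did not. *Sdc1*, a defining plasma cell marker, was at most 13.5 in any library, with overlap. *Tnfrsf17*, of the same list, was at 0, 52.7 and 4.16 in WT and at 1.48, 0 and 2.05 in the other group, also with overlap. *Xbp1*, likewise of this list, had WT values of 1587.7, 1138.5 and 1293.5, against 925, 895 and 971. It was lower without overlap (12.2% of all genes), by -0.51 on the log2 scale and by -0.38 without WT replicate 1. B cell genes differed in direction. *Cd79a* was at 19.2, 208 and 140.4 in WT and at 22.2, 14.7 and 45.0 in the libraries labelled Bach2-deficient, with overlap, and DESeq2 on 5 libraries called it lower, as it did 0.505% of all genes (adjusted p = 0.000455, against 0.0685 on 6 libraries and 0.280 in limma). *Cd79b* was at 112, 369 and 225 and at 102, 145 and 117, with overlap. The overlap of *Cd79a* and *Cd79b* came from WT replicate 1 alone, and their log2 fold changes of -1.72 and -0.80 were -2.75 and -1.26 without it. *Pax5* was below 0 (-0.50) and turned to 0.26 without replicate 2 labelled Bach2-deficient. *Cd22* (0.94), *Fcer2a* (2.33) and *Cr2* (1.40) were above 0 in log2 fold change, with overlap, and at 0.46, 1.70 and -0.22 without WT replicate 1, so that the direction of *Cr2* rests on that library. *Ms4a1*, which encodes CD20, was lower without overlap, at 35.3, 33.7 and 45.8 and at 2.96, 2.68 and 10.2.

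The sum of 8 markers of CD8 T cells, NK cells and innate lymphoid cells was 997, 1472 and 994 in WT and 576, 937 and 586 in the libraries labelled Bach2-deficient, lower without overlap in the sum, with *Cd8b1* the most abundant per kb. *Eomes* made up 507 of the sum in WT replicate 1. Of the 7 genes tested, 5 were below 0 in log2 fold change, *Eomes* (-1.80), *Prf1* (-1.47), *Klrb1c*, *Cd8a* and *Cd8b1*. *Cd8a* and *Cd8b1* turned above 0 without WT replicate 2, and *Cd8a* also without replicate 2 labelled Bach2-deficient. *Eomes* and *Prf1* were above 0 with library weights. *Ncr1* and *Klrd1*, which mark NK cells, were above 0 and at 0 normalized counts in WT replicate 1, without which their log2 fold changes were 0.13 and -0.14. Without that library *Eomes* and *Prf1* were at -1.06 and -0.30. None of the 7 separated the groups on 6 libraries, and without WT replicate 1 *Cd8b1* and *Klrb1c* were lower without overlap (18.1% of all genes) and 0 higher (20.5%). Of 7 endothelial and stromal markers, 6 were under 10 in each library, and *Pecam1*, which leukocytes also express, made up nearly the whole sum of 445 to 594. The sum of 8 naive T cell markers was 12147, 12995 and 9698 in WT and 14011, 13899 and 12046 in the other group, with *Tcf7*, which Tfh cells also express, the most abundant per kb. Of the 8 genes, 4 were below 0 and 4 above 0 in log2 fold change. *Tcf7* was higher without overlap (0.50), and *Ccr7* was lower with overlap (-1.14). *Dapl1* was lower without overlap, at 249, 316 and 107 and at 8.87, 28.8 and 19.4, by -3.49 on the log2 scale. DESeq2 called *Dapl1* lower on 5 libraries (0.505% of all genes) and on 6 (0.726%), as did limma with library weights (5.02%), and edgeR did not. On 5 libraries DESeq2 called 0 of the 8 higher (0.292%). The part of these other cells in the values of the 10 genes was not tested.

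**Figure D5:**
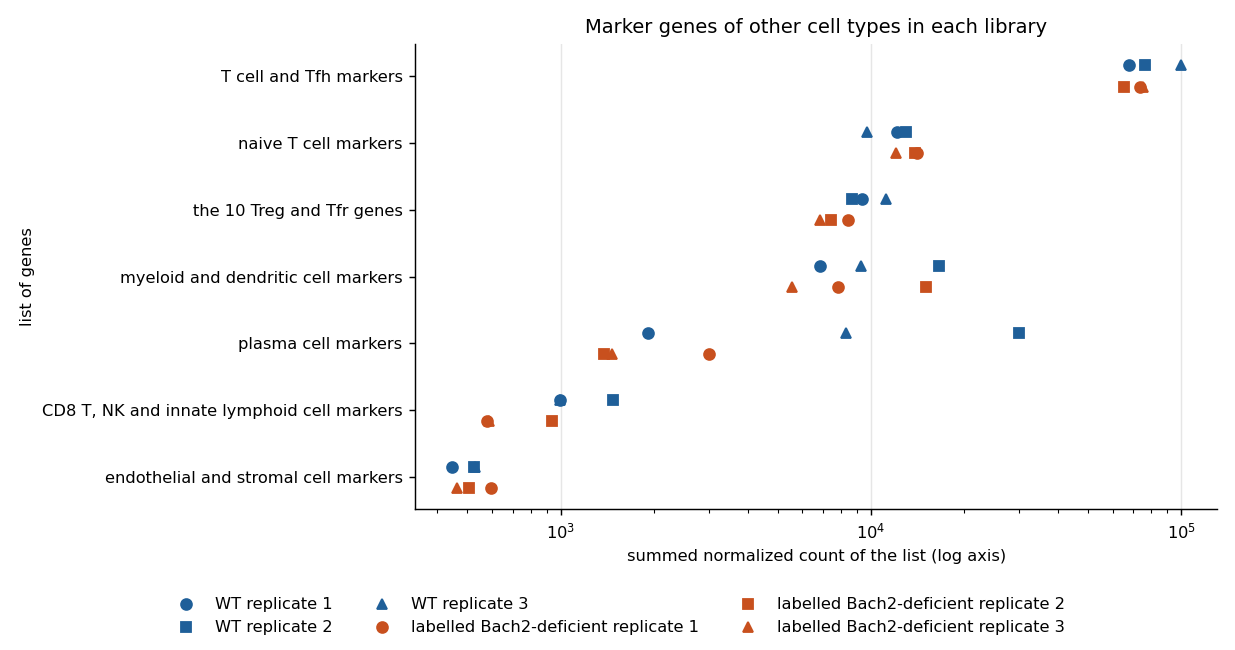
Summed normalized count (log axis) of 6 marker lists and of the 10 Treg and Tfr genes in each library; color gives the group and symbol the replicate. WT replicates 2 and 3 have the highest sums of plasma cell markers, and the sum of the 10 genes is 8702 to 11201 in WT and 6832 to 8398 in the libraries labelled Bach2-deficient. That sum is not per kb, and *Ikzf2*, a long gene whose groups overlap, makes up 3394 to 5358 of it in WT and 3080 to 5448 in the others.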

How the data were processed

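The signal values are normalized read counts per gene, as deposited, made by the authors by dividing counts by a size factor per library. For alignment and counting the paper names Tophat2, HTSeq and DESeq2, while the submitters' processing notes list STAR 2.5.2b, DESeq, R 3.5.1 and DESeq2 1.20.0 on GRCm38. In R 4.3.3, limma 3.58.1 with a variance trend was fitted to log2(normalized count + 1) of 11296 genes in 6 libraries, with Benjamini-Hochberg adjustment. In each of the 6 libraries 100% of values are within 0.05 of a whole multiple of a step. Count tests used whole reads recovered from 5, as first set, leaving out WT replicate 1 for a step near 1 (1.0093, little nearer than the 1.0228 and 1.0398 of libraries kept), and then from all 6, added after the values were seen. DESeq2 1.42.0 called 57 genes lower and 33 higher on 5 libraries and 82 and 38 on 6, and edgeR 4.0.16 called 0 on either. There were 20 alternative settings. The fitting code was run on simulated data first. Genes were annotated with GENCODE M21 on GRCm38 and promoters with RefSeq on GRCm38.p6. The 10 genes and the lists were chosen with earlier results of these data known. Named genes are the 10, the 5 most like *Foxp3*, 6 checks, and from each list its most abundant gene and those without overlap at more than 2-fold. Further genes are named beside a count, or as markers chosen after the values were seen.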

Additional observations from a re-analysis of the deposited data

How the results depend on the processing

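The 20 alternatives share the same 6 libraries and are not independent. The members called in either direction, and called lower, were 0, against 1 with library weights and 1 in DESeq2 on 5 libraries, in each case *Foxp3*, but 0 in DESeq2 on 6 libraries, added after the values were seen; 0 to 0 with a single library left out. The members lower at unadjusted p under 0.05 were 3, and 6 with library weights, where 22.8% of all genes were (2 to 3 with a single library left out). Weights were 0.206 for WT replicate 1 and 5.54 for replicate 2 labelled Bach2-deficient.

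Log2 fold changes that changed sign, among the members and the genes named by rule: *Il2ra* 0.47 (weights; -0.85 to 0.14 with a single library left out), *Ikzf2* 0.0716 (quantile; -0.358 to 0.0538), *Ikzf4* -0.39 (edgeR) and -0.42 (DESeq2; -0.51 to 1.08), *Nrp1* (-0.36 to 0.16), *Lrrc32* 0.45 (weights), *Cxcr5* -0.40 (weights) and -0.0326 (trend removed; -0.0661 to 0.332), *Mbd2* 0.0682 (quantile) and 0.0385 (weights), *Cd3d* 0.0485 (quantile) and 0.14 (trend removed; -0.20 to 0.11), *Cst3* 0.0726 (quantile) and 0.25 (weights; -0.316 to 0.0616), *Cd8b1* (-0.87 to 0.13), *Pecam1* -0.0309 (median rescaling), -0.0636 (weights), -0.28 (trend removed), -0.0494 (edgeR), -0.0731 (DESeq2) and -0.00312 (DESeq2 on 6 libraries; -0.0666 to 0.104). Of other genes in the text, *Fcer1g*, *Cr2* and *Klrd1* were at -0.14, -0.22 and -0.14 without WT replicate 1, *Fcer1g* (-0.06), *Pax5* (0.26) and *Cd8a* (0.08) turned without replicate 2 labelled Bach2-deficient, *Cd8a* (0.29) without WT replicate 2, and *Eomes* (0.03) and *Prf1* (0.60) with weights. *Ccr4*, near 0, turned in 7 settings, to -0.20 at the lowest. *Itgax*, *Tyrobp* and *Xcr1* turned without WT replicate 1 and in edgeR and DESeq2 on 5 libraries. *Tyrobp* (-0.38) and *Xcr1* (0.17) also turned without replicate 2 labelled Bach2-deficient. *Itgax* also turned under quantile normalization (-0.16), with the trend removed (-0.03), and without WT replicate 3 (-0.15) or replicate 1 labelled Bach2-deficient (-0.30). *Foxp3*, *Ctla4*, *Tnfrsf18*, *Capg* and *Gpr83* kept their direction in each setting.

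With the replicate number as a replicate block, *Foxp3* was at -1.76 (limma adjusted p = 0.219), and replicate numbers are not known to pair libraries.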
